A study of Mus musculus with 1666 samples.

Results

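The cells described here are 77 of 1614 single cells (4.77%) from developing mouse whisker hair follicles, chosen because they held little Trp63 RNA and some RNA of an endothelial gene. A cell was taken where Trp63, the transcription factor of the basal epidermis, was under 10 TPM, a transcript abundance scaled by gene length and library total, and Cdh5 or Pecam1 was at 10 TPM or more. Cdh5 encodes VE-cadherin, the adhesion molecule of endothelial junctions, and Pecam1 encodes CD31, a surface protein of endothelial cells, platelets and some leukocytes. Both genes, with Trp63, chose the members, so their values are a description and no test rests on them. The rule's name in use, endothelial cells that passed the CD31 gate, held for 46 of the 77 cells. The other 31 cells lacked the endothelial programme, as set out with their markers, and are called by the genes that admitted them.

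The study followed whisker follicles at 7 stages, E11.5 with 94 cells, E12.0 with 276, E13.0 with 267, E13.5 with 181, E14.0 with 177, E15.0 with 350 and E17.0 with 269. All cells were sorted as positive for the integrin ITGA6 and negative for CD31 protein, a gate meant for basal epidermal cells. From E12.0 on, single whole follicles of embryos carrying a transgene for nuclear Kikume Green-Red, a fluorescent protein that light turns from green to red, were converted under the microscope and red cells were kept. At E11.5 no converted signal was required. Each cell gave 1 library by RamDA-seq, which reads total RNA along whole transcripts. No embryo or litter is named in the labels, so a stage is 1 sample, and cells and plates are not replicates. The plate identifier in the cells' titles recurs across stages, in E15.0 plates 2, 3 and 4 with E17.0 plates 1, 2 and 3 and in E13.0 plate 1 with E15.0 plate 1. Depth cannot be read from TPM and is unknown.

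Endothelial cells line blood and lymphatic vessels. They respond to VEGF through the receptor KDR, share out sprouting and stalk roles through the Notch ligand DLL4, and hold together through VE-cadherin and claudin 5. In skin, a vascular plexus forms beside the growing follicles, and its vessels carry ITGA6, a subunit of laminin receptors, as basal epidermal cells do.

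The 77 cells split by the genes that admitted them. Cdh5 and Pecam1 were both at 10 TPM or more in 46 cells, Pecam1 alone in 30 and Cdh5 alone in 1. In the 46 cells Cdh5 lay between 244 and 1193 TPM with a median of 567 TPM, and Pecam1 lay between 252 and 1069 TPM with a median of 536 TPM. In the 30 cells with Pecam1 alone, Pecam1 lay between 10.003 and 131 TPM with a median of 12.6 TPM, and Cdh5 reached at most 0.339 TPM. Among the 77 cells, none lay between these groups in Cdh5 apart from the single cell with 15.2 TPM of Cdh5 and 5.75 TPM of Pecam1. Outside the 77, Cdh5 reached 7.98 TPM in cells with Trp63 under 10 TPM and 6.88 TPM in cells with Trp63 at 10 TPM or more. The members just inside the threshold had 10.003, 10.18 and 10.34 TPM for the larger of the 2 genes, and the cells just outside had 9.66, 9.37 and 9.02 TPM. Across the 46 cells the levels of Cdh5 and Pecam1 had a Spearman correlation of 0.72, and of 0.49 among the 19 cells of E17.0 and 0.30 among the 10 cells of E13.5, which share their libraries.

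**Figure D1:**
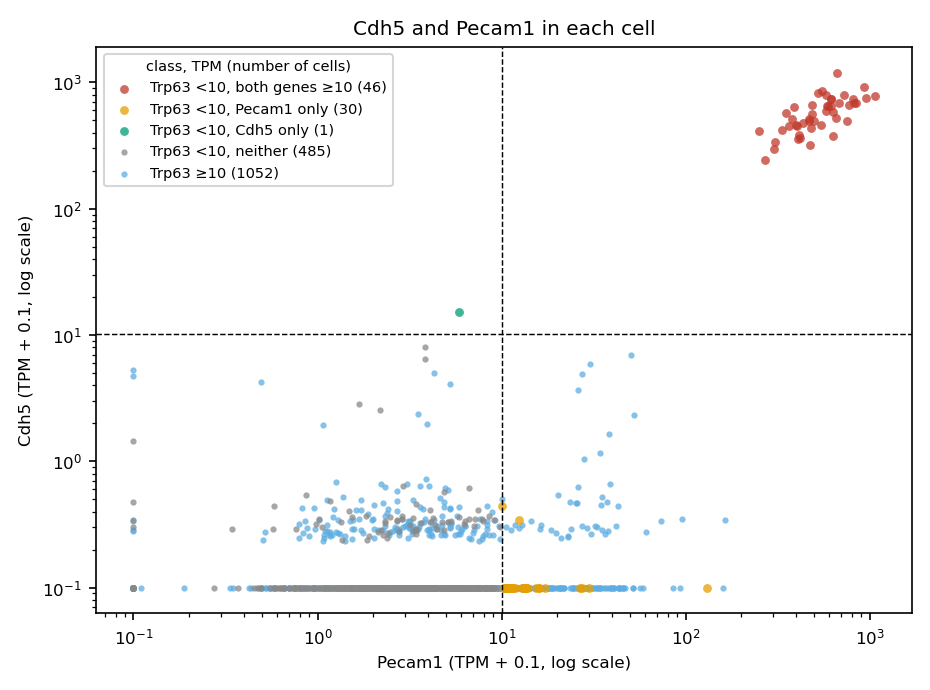
Level of Cdh5 against level of Pecam1 in single cells, in TPM on log axes, with the chosen cells set apart from the other cells by colour. The 46 cells with both genes sit above 240 TPM in each, while the 30 cells with Pecam1 alone sit near the 10 TPM threshold.

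Markers that the rule did not name gave the same division. Of 30 pan-endothelial markers, a list without Cdh5 and Pecam1, each of the 46 cells held 24 to 30 at 10 TPM or more, with a median of 28. The 30 cells with Pecam1 alone held 0 to 4, with a median of 2, which is also the median of the 485 other Trp63-low cells, whose range was 0 to 9. Of those 30 cells, 27 held 3 or more fibroblast markers, 2 held 7 or more basal epidermal markers and 1 held 3 or more nerve and Schwann cell markers. The cell with Cdh5 alone, from E14.0, held 9 macrophage and leukocyte markers. None of the 46 cells held 3 fibroblast markers, and 1, from E12.0, held 3 macrophage markers. The 46 cells are called endothelial-like below, and Trp63 reached at most 1.90 TPM in them. Itga6, the gene of the sorting antigen, was at 64.4 to 570 TPM in them with a median of 258 TPM.

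**Figure D2:**
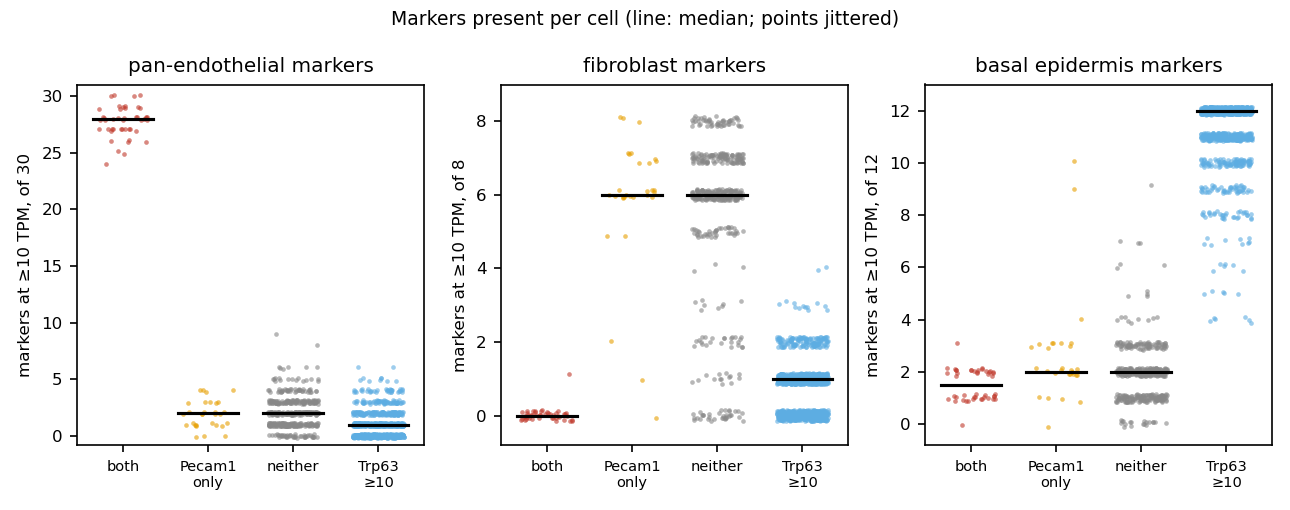
Number of pan-endothelial, fibroblast and basal epidermal markers at 10 TPM or more in each cell, 1 point per cell, by class. The 46 cells with both genes hold 24 to 30 endothelial markers, and no other class exceeds 9.

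Pecam1 RNA at 10 TPM or more was not particular to these cells. Among the 1052 cells with Trp63 at 10 TPM or more, 185 (17.6%) passed that level for Pecam1, and 57.99% of the 269 such cells of E12.0 did so. None of the 1052 reached 10 TPM of Cdh5, which allows a share of up to 0.285%. The 185 cells held 0 to 6 pan-endothelial and 8 to 12 basal epidermal markers.

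The endothelial-like cells came from 6 of the 7 stages, unevenly. They were 2 of 94 cells at E11.5 (2.13%), 3 of 276 at E12.0 (1.09%), 0 of 267 at E13.0, 10 of 181 at E13.5 (5.52%), 6 of 177 at E14.0 (3.39%), 6 of 350 at E15.0 (1.71%) and 19 of 269 at E17.0 (7.06%). The exact 95% Clopper-Pearson interval, which covers counting error only, ran between 4.31 and 10.8% at E17.0, and at E13.0 it reached up to 1.37%. By the limit of 3 counts used elsewhere for a 0, the 0 of 267 allows up to 1.12%. By plate they numbered 0 on each of the 3 plates of E13.0, 3 and 7 at E13.5, 3 and 3 at E14.0, 0, 3, 0 and 3 at E15.0, and 6, 8 and 5 at E17.0. So the E15.0 cells came from 2 of 4 plates. Cells with Pecam1 alone were 2 of 7 Trp63-low cells at E12.0, 15 of 214 at E13.0 and 1 of 21 at E13.5. They were 0 of 33 at E14.0, 8 of 166 at E15.0 and 4 of 85 at E17.0. Of the 8 cells of E15.0, 6 were on plate 1, which held 79 Trp63-low cells and no endothelial-like cell. As a share of the Trp63-low cells, the endothelial-like cells made up 22.4% at E17.0 (19 of 85) and 47.6% at E13.5 (10 of 21). These are shares of sorted cells, photoconverted from E12.0 on, and not of the tissue. What set them was not tested, and no test between stages can be made with 1 sample each.

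**Figure D3:**
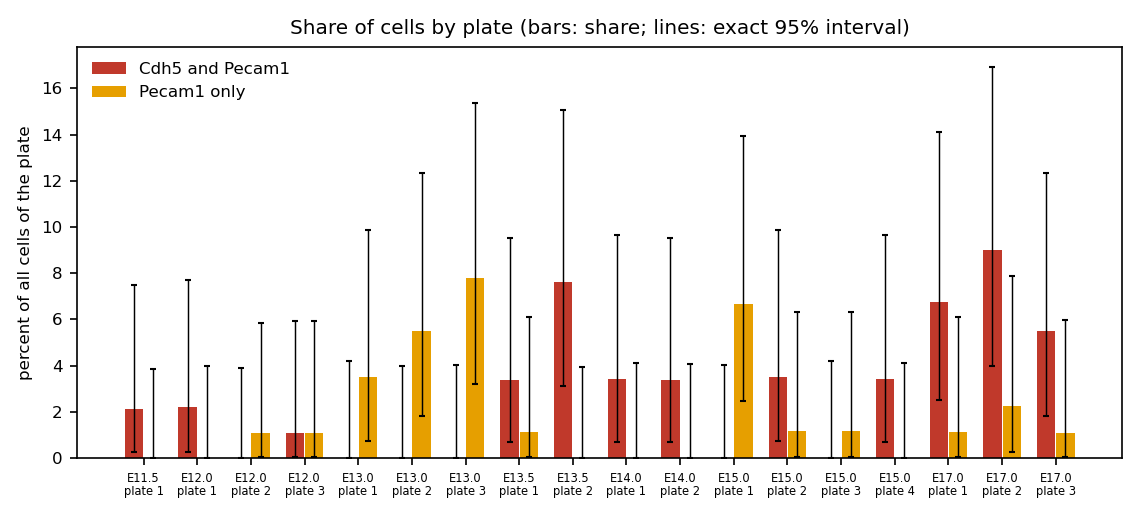
Share of all cells of each plate, in percent, that held both Cdh5 and Pecam1 or Pecam1 alone, by stage, with exact 95% intervals for counting error. Cells with both genes are on every plate of E13.5 and E14.0 as well as of E17.0 and on no plate of E13.0. Pecam1 alone is at 3.49, 5.49 and 7.78% on the E13.0 plates and at 6.67% on plate 1 of E15.0. Most cells of these plates are Trp63-low.

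The 77 cells as chosen were first set against the other Trp63-low cells of the same plates, where a plate held any. A gene counted as higher or lower where the difference of log2(mean TPM + 1), averaged over the stages with 5 or more chosen cells, was 4-fold or more, with the same sign in every stage and the higher mean at least 10 TPM. For the 77 cells 113 of 10528 genes (1.07%) were higher and 19 (0.18%) lower. Kcne3, Bcl6b, Cd93 and Rasip1 were among the leading higher genes. Of the pan-endothelial list 8 of 28 tested members met the rule, with a median log2 difference of 4.33 against -0.11 over all genes tested. At E12.0 the 5 chosen cells were set against only 2 other cells, both on plate 3 and both with 7 or more basal epidermal markers. Plates 1 and 2 of that stage held 0 other cells. Without E12.0, 115 genes were higher and 80 lower. Without E13.0, where all 15 chosen cells held Pecam1 alone, 287 genes were higher and 123 lower. The profile was therefore also drawn for the 46 endothelial-like cells, a choice made after the values were seen. It uses the 41 of them from E13.5 onwards and 157 other Trp63-low cells. Here the other cells are all Trp63-low cells of the same plates without both genes, chosen cells with 1 of the genes included. So 6 of the 157 held Pecam1 at 10 TPM or more and 1 held Cdh5. Among all 194 such cells of their plates, which include E11.5 and E12.0, 131 held 3 or more fibroblast markers, 48 nerve and Schwann cell markers, 13 melanocyte and 9 macrophage markers. The endothelial-like cells had fewer genes at 1 TPM or more, with a median of 15924.5 over the 46 against 17676 over the 485 other Trp63-low cells, and the part of this gap in the profile was not tested.

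In that profile 408 of 10753 genes (3.79%) were higher and 856 (7.96%) lower, and the median log2 difference over all genes tested was -0.32. All 30 pan-endothelial markers were higher, with a median log2 difference of 5.53. Since the cells were chosen for endothelial genes in this same contrast, the counts describe the cells and are no test. The values below are log2 differences with the SD over the 4 stages.

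Among the genes of vessel identity Emcn, which encodes the endothelial sialoglycoprotein endomucin, was at 50.5 to 377 TPM with a median of 181 TPM in the 46 cells, against 0 to 45.6 TPM with a median of 0 TPM in the 194 other cells. The groups did not overlap in Emcn, which was taken from the leading genes of this same contrast. The share of all genes without such overlap is not given here. Egfl7, which encodes a secreted endothelial matrix protein and hosts miR-126, was at 33.997 to 2710 TPM with a median of 1037 TPM in the 46 cells, against 0 to 81.9 TPM with a median of 0 TPM in the others, so that the lowest endothelial-like cells overlapped with the highest other cells. Kcne3, which encodes a potassium channel subunit, averaged 245 TPM in endothelial-like cells and 0.0663 TPM in the other cells, a difference of 7.67 ± 0.90 (n = 4). It was at 10 TPM or more in 41 of the 46 cells. Cldn5, the tight junction claudin, averaged 169 TPM in endothelial-like cells and 0.194 TPM in the other cells. Other leading genes were Robo4, Plvap, which forms the diaphragms of fenestrae and caveolae, Icam2 and Sox7.

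The promoters of Emcn and Kcne3 are shown because they carry, as Egfl7 does, the word ACAGGAAG, which contains the GGAA core that ETS factors bind. It was searched on both strands in RefSeq promoters of GRCm38.p6, from 250 bases before to 50 after each start. For the pan-endothelial list, 21 promoters of 16 genes were at hand. The word occurs in 3 of the 21, those of Egfl7 and Emcn alone, and in 3.58% of all 32851 promoters. A match is a description of the sequence and not a bound site. The promoter of Emcn, on the plus strand at chr3:137340828-137341127, holds the reverse complement, in capitals.
Emcn promoter: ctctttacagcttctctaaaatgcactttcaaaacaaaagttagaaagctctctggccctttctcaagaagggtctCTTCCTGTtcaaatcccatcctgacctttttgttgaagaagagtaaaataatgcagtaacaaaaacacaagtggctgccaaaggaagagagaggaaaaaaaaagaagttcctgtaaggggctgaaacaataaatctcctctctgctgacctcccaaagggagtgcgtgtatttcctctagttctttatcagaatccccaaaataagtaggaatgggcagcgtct
The promoter of Kcne3, on the plus strand at chr7:100176420-100176719, holds it in the same orientation as Emcn.
Kcne3 promoter: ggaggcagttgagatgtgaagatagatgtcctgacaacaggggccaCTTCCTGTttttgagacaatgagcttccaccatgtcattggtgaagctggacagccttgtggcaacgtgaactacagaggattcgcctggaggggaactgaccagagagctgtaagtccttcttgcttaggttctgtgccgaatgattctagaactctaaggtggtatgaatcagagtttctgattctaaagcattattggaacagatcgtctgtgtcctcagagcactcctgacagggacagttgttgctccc

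Mir126b and Mir126a lie opposite each other within Egfl7, Mir126a at chr2:26591357-26591429 on the plus strand, as Egfl7, and Mir126b at chr2:26591363-26591420 on the minus strand (GENCODE positions on mm10). The mature miR-126a-3p, an endothelial miRNA, spans chr2:26591402-26591423 and is shown with its seed, bases 2 to 8, in capitals.
mmu-miR-126a-3p: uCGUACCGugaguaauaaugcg
The Mir126b symbol was at 10 TPM or more in 17 of the 46 cells and in 0 of the 194 others, and the Mir126a symbol in 3 of the 46 cells. The strand used in counting is not given in the sources used here, so these values cannot be told apart from reads of the Egfl7 transcript, and they are no level of the mature miRNA.

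The receptors of the vascular growth factors were higher in the endothelial-like cells. Kdr, the main VEGF receptor, averaged 183 TPM in them and 3.17 TPM in the other cells (5.84 ± 1.24, n = 4). Flt1, the decoy VEGF receptor, averaged 193 TPM against 8.18 TPM, and Flt4, the receptor for VEGF-C, 59.8 TPM against 0.224 TPM. Vegfa itself averaged 125 TPM in endothelial-like cells and 249 TPM in the others, and did not meet the rule. Of 9 tested VEGF ligands and receptors 4 were higher and none lower. Both angiopoietin genes tested, the receptor Tek and its partner Tie1, were higher, Tie1 with 202 TPM against 1.25 TPM (6.49 ± 0.17, n = 4).

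Some genes used to tell arteries and veins apart were present in the same cells, while other arterial genes and several lymphatic genes were at or near 0. Dll4 was at 0 to 948 TPM with a median of 121 TPM over the 46 cells and reached 10 TPM in 44 of them. Aplnr, the apelin receptor of veins and capillaries, was at 0 to 766 TPM with a median of 127 TPM and reached 10 TPM in 38. Both were at 10 TPM or more in 37 cells. The arterial ligand gene Efnb2 and the venous receptor gene Ephb4 were both at 10 TPM or more in all 46 cells. Neither gene met the profile rule, since Efnb2 averaged 167 TPM in endothelial-like and 48.3 TPM in other cells and Ephb4 51.5 TPM in endothelial-like and 27.9 TPM in other cells. Nr2f2, a transcription factor of venous identity, reached 10 TPM in 35 cells and Sox17, one of arterial identity, in 38. Gja5, Hey2 and Bmx, arterial genes, and Lyve1, Pdpn and Ccl21a, lymphatic genes, reached 10 TPM in 0 of 46 cells, which allows up to 6.52% of cells for each. Prox1, the lymphatic regulator, reached 10 TPM in 3 cells, Reln in 1 and Flt4, also on the lymphatic list, in 44. Each of the 46 cells held 1 to 4 of the 8 lymphatic markers, with a median of 3. Of the arterial list 3 of 8 tested genes were higher and 1 lower, of the venous list 2 of 6 higher, and of the lymphatic list 2 of 3 higher.

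Of 7 tested tip cell genes, those of the leading cell of a sprout, 6 were higher. Apln, the apelin ligand, averaged 22.96 TPM in endothelial-like cells and 0.548 TPM in the others and reached 10 TPM in 19 of the 46 cells. Esm1, the secreted proteoglycan endocan, reached it in 11. In the Notch list 4 of 12 tested genes were higher and 2 lower. The receptor gene Notch4 averaged 154 TPM in endothelial-like cells against 5.93 TPM in the others, and Nrarp, a Notch target and feedback regulator, 30.5 TPM against 1.90 TPM. The targets Heyl and Hey2 were lower, Heyl with 0.0942 TPM against 25.003 TPM. Of the ALK1 and BMP genes Eng, a co-receptor, averaged 295 TPM against 21.7 TPM, while the BMP target Id2 was lower with 9.57 TPM against 145 TPM. Of 17 tested endothelial transcription factors 12 were higher and 1 lower, among them the ETS factor Erg with 63.4 TPM against 1.05 TPM.

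The endothelial-like cells carried their own set of matrix, adhesion and secreted genes. Of 14 vascular basement membrane genes 8 were higher and none lower, led in level by Col4a1, a chain of type IV collagen, with 1478 TPM against 168 TPM in the others. Of 12 tested integrin subunits 3 were higher, Itga3, Itga2 and Itga5, and 2 were lower, Itgb5 and Itga4. Itga6 averaged 275 TPM in endothelial-like cells and 103 TPM in the other cells (1.47 ± 0.63, n = 4), short of 4-fold. Of 9 tested angiocrine ligands 5 were higher and 1 lower. Pdgfb, the ligand that recruits pericytes, averaged 52.5 TPM against 0.711 TPM, and Kitl, the KIT ligand that melanocytes and mast cells need, 215 TPM against 10.1 TPM. Cxcl12, the chemokine that binds CXCR4, was lower with 1.67 TPM against 20.6 TPM. The glucose transporter gene Slc2a1 averaged 505 TPM against 52.04 TPM.

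**Figure D4:**
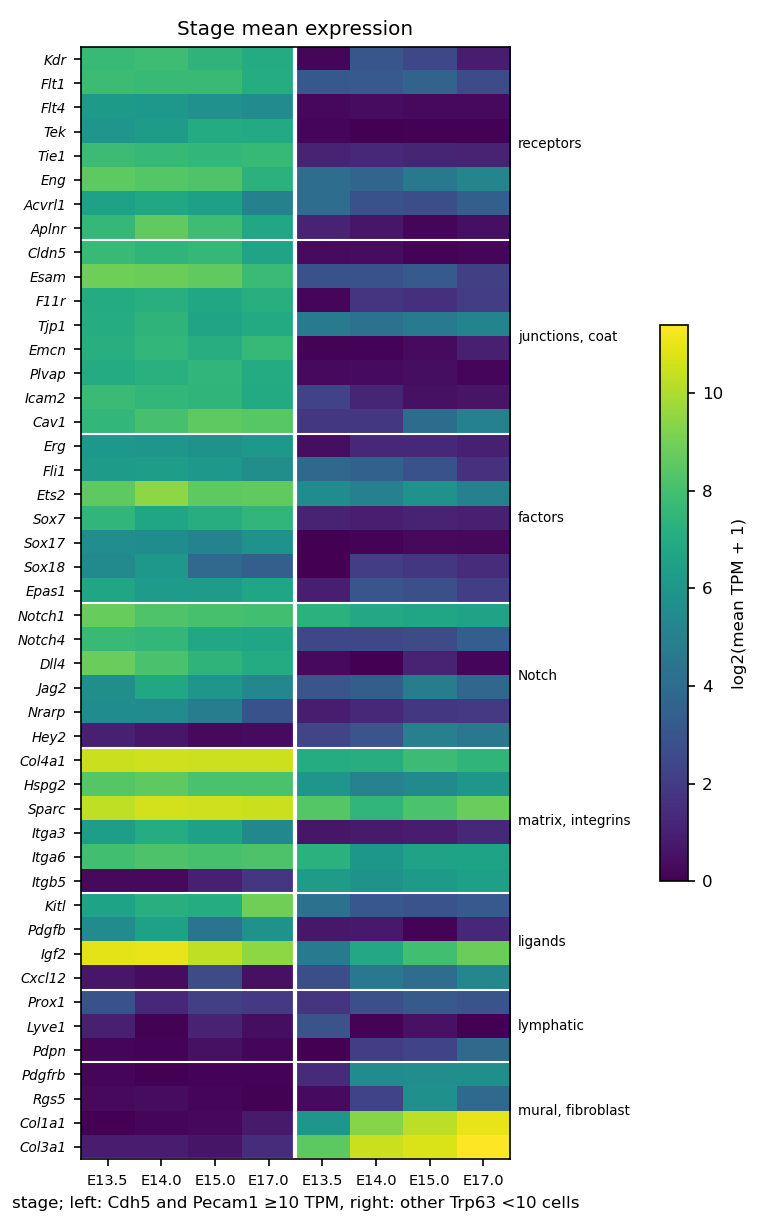
Mean level per stage as log2(TPM + 1) for genes grouped by role, in the cells with both Cdh5 and Pecam1 on the left and the other Trp63-low cells on the right, from E13.5 to E17.0. Most vessel genes, such as Emcn, Cldn5 and Tie1, are high on the left in each of the 4 stages, and Col3a1 on the right.

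Markers of the cell types they were set against were lower in the endothelial-like cells. Col3a1, the fibrillar collagen of dermis, averaged 1.02 TPM in them and 1554 TPM in the others (-9.31 ± 1.16, n = 4), and all 7 tested fibroblast markers were lower. All 7 tested nerve and Schwann cell markers, 5 of 6 melanocyte, 4 of 12 macrophage and 5 of 7 pericyte markers were lower as well. Pdgfrb, the receptor of pericytes, was at 0.0691 TPM in endothelial-like cells against 36.6 TPM, while Abcc9 and Kcnj8, potassium channel genes of pericytes, averaged 30.7 and 16.6 TPM against 9.54 and 4.49 TPM and did not meet the rule. Of 13 mitotic genes 7 were lower, with a median log2 difference of -2.02, and none of 13 S phase genes met the rule. Mki67, a proliferation marker, reached 10 TPM in 7 of the 46 cells and Top2a in 14. Of the 12 basal epidermal markers 5 could be tested and 2 of them were lower.

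The earliest endothelial-like cells, 2 at E11.5 and 3 at E12.0, were too few for the profile. Cdh5 was at 462 and 572 TPM in the E11.5 cells, and at 297 to 415 TPM in the E12.0 cells. Kdr was at 235 and 247 TPM and Aplnr at 451 and 401 TPM in the E11.5 cells, in the same order. Kitl was at 31.9 and 34.1 TPM in the E11.5 cells and at 40.4 to 175.6 TPM in the E12.0 cells, one of which lay within the E17.0 range of 130 to 1240 TPM. Kcne3 was at 46.9 and 12.6 TPM in the E11.5 cells and at 2.65 to 172.2 TPM in the E12.0 cells. Kcne3 spanned a wide range among stages, with medians of 33.4 TPM at E13.5, 493 TPM at E14.0, 174.1 TPM at E15.0 and 204.4 TPM at E17.0.

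A linear trend with embryonic day was tested with limma over stage means, two-sided, with Benjamini-Hochberg adjustment. No gene passed an adjusted p of 0.05 in the 77 cells (0.0% of 24537 genes over 6 stages, 904 at an unadjusted p under 0.05) or in the 46 cells (0.0% of 20976 over 4 stages, 1098 at an unadjusted p under 0.05). The difference from the other Trp63-low cells likewise gave 0 genes (0.0%), with 1616 and 1086 at an unadjusted p under 0.05. The lowest adjusted p values of the 4 tests lay between 0.662 and 0.917. The tests take stages as independent points, although E15.0 shares plate identifiers with E17.0 and E13.0. The stage means of the 77 cells also mix cell types in parts that change by stage. Pecam1 alone was held by 15 of the 15 chosen cells at E13.0 and by 0 of the 7 at E14.0. The trend of the 77 cells is therefore not one of endothelial-like cells alone. With 4 or 6 points the tests leave a change with stage undecided.

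The stages with the most endothelial-like cells, E17.0 with 19 and E13.5 with 10, were therefore set side by side, a comparison added after the values were seen and without a test. A gene counted where the log2 difference was 4-fold or more, the higher mean was at least 20 TPM and the means of the 3 plates of E17.0 and the 2 plates of E13.5 did not overlap. At E17.0 73 of 5704 genes (1.28%) were higher and 99 (1.74%) lower than at E13.5. Among cells with Trp63 at 10 TPM or more the same rule gave 64 higher (1.09% of 5879) and 27 lower (0.459%). Without plate 2 of E13.5, which held 7 of its 10 cells, 2.57% of genes tested were higher and 4.37% lower in the endothelial-like cells. The endothelial-like cells had a median of 15341 genes at 1 TPM or more at E17.0 and 16175 at E13.5. The part of this gap in the comparison was not tested.

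Chemokine and leukocyte-recruiting genes led the higher side. Ccl2, a monocyte chemokine, was at 0 to 2077 TPM with a median of 133 TPM in the E17.0 cells, against 0 to 2.73 TPM with a median of 0 TPM in the E13.5 cells. Its plate means were 208, 612 and 500 TPM at E17.0 and 0.909 and 0 TPM at E13.5. Cxcl1, a neutrophil chemokine, was at 0 to 515 TPM with a median of 45.7 TPM at E17.0, against 0 to 10.8 TPM with a median of 0 TPM at E13.5. So 15 of 19 cells reached 10 TPM of Ccl2 and 14 of 19 reached it for Cxcl1 at E17.0, and the single cells of both stages overlapped at the low end. Csf1, the macrophage growth factor, averaged 81.6 TPM at E17.0 and 9.85 TPM at E13.5, and Tnfaip3, a feedback inhibitor of NF-κB, 57.5 TPM and 2.86 TPM. Selp, which encodes P-selectin for leukocyte rolling, averaged 82.1 TPM at E17.0 and 0.283 TPM at E13.5, and reached 10 TPM in 7 of 19 cells at E17.0. Sele, the E-selectin gene, averaged 108.4 TPM at E17.0 and 8.11 TPM at E13.5 and reached 10 TPM in 14 of 19 and 1 of 10 cells, but its plate means overlapped and it did not count. All 8 cells with Selp at 10 TPM or more, among the 46, also held Sele. Of the inflammatory endothelial list, written after values were seen, 6 of 16 tested genes were higher and none lower, with a median of 2.08 against -0.02 over all genes tested. In the cells with Trp63 at 10 TPM or more 2 of 5 tested members were higher, with a median of 0.55. Ccl2 and Cxcl1 also rose in those cells, by log2 differences of 2.18 and 2.19, to low means of 3.62 and 5.03 TPM at E17.0. Tnfaip3 differed there by 1.15 and Csf1 by 0.27. So a rise of these chemokines, to low means, was also seen in the cells with Trp63 at 10 TPM or more. In the other Trp63-low cells of the same plates Ccl2 differed by 0.40, with means of 102.9 TPM at E17.0 and 77.7 TPM at E13.5. Cxcl1 differed by -0.53 in those cells, with means of 25.8 and 37.8 TPM, Tnfaip3 by -0.57 and Csf1 by 0.43. The types of these other cells differ between the stages, as set out further below.

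Other genes higher at E17.0 encode secreted factors. Anxa1, which encodes the anti-inflammatory protein annexin A1, was at 0 to 701 TPM with a median of 98.8 TPM at E17.0, against 0 to 14.7 TPM with a median of 0 TPM at E13.5, and reached 10 TPM in 16 of 19 cells against 1 of 10. Kitl was at 130 to 1240 TPM with a median of 519 TPM at E17.0, against 18.0 to 197 TPM with a median of 85.7 TPM at E13.5, a log2 difference of 2.30. In the cells with Trp63 at 10 TPM or more, Kitl differed by -2.09 between these stages, from means of 9.32 TPM at E17.0 and 42.9 TPM at E13.5. Without plate 2 of E17.0 the Kitl difference in the endothelial-like cells was 1.99, short of 4-fold. Pdgfa, a growth factor for dermal fibroblasts, averaged 119 TPM at E17.0 and 9.30 TPM at E13.5.

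Some stress genes were higher at E17.0. Of 18 tested genes of the stress response list, also written after values were seen, 5 were higher and 1 lower, with a median of 0.77. The heat shock gene Hspa1a averaged 0.131, 150 and 6.54 TPM on the 3 plates of E17.0 and 0 TPM on both plates of E13.5, and Hsph1 averaged 44.3, 389 and 94.4 TPM against 20.01 and 27.2 TPM. Without plate 2 of E17.0 Hsph1 differed by 1.39, under 4-fold. Fos, an immediate early gene, was lower at E17.0 with 10.1 TPM against 65.3 TPM. Fosb and Dusp1, of the same list, averaged 6.27 and 46.2 TPM at E17.0 against 34.6 and 139.4 TPM at E13.5 and did not meet the rule. Of the same list 2 of 17 genes were higher and 1 lower in the cells with Trp63 at 10 TPM or more. The part of these stress genes in the chemokine values was not tested.

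The lower side included Madcam1, Esm1 and Hilpda. Madcam1, which encodes an adhesion molecule for lymphocyte homing in mucosal vessels, was at 0 to 16.99 TPM with a median of 0 TPM at E17.0, against 0 to 315 TPM with a median of 23.1 TPM at E13.5. It reached 10 TPM in 1 of 19 cells at E17.0 and in 7 of 10 at E13.5. Esm1 was at 0 to 13.54 TPM with a median of 0 TPM at E17.0, against 0.275 to 190 TPM with a median of 12.5 TPM at E13.5. Dll4 averaged 128 TPM at E17.0 and 448 TPM at E13.5, a log2 difference of -1.80, short of 4-fold. Of the tip cell list 2 of 7 tested genes were lower and none higher. Apln, of the same list, averaged 25.5 TPM at E17.0 and 7.89 TPM at E13.5, a log2 difference of 1.58 that did not meet the rule. Hilpda, a lipid droplet gene induced by hypoxia, was at 0 to 28.1 TPM with a median of 4.21 TPM at E17.0, against 2.31 to 458 TPM with a median of 65.4 TPM at E13.5. Of 12 tested genes of the hypoxia response list, a list written after values were seen, 4 were lower and none higher, with a median of -0.75, while 0 of 9 met the rule in the cells with Trp63 at 10 TPM or more, where the median was 0.33. Smad7, an inhibitor of TGF-β signalling, averaged 7.35 TPM at E17.0 and 85.1 TPM at E13.5, and 3 of 8 tested ALK1 and BMP genes were lower. Lfng, which modifies Notch receptors, averaged 3.71 TPM at E17.0 and 57.5 TPM at E13.5. None of 27 tested pan-endothelial markers met the rule in either direction, and their median was -0.35.

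**Figure D5:**
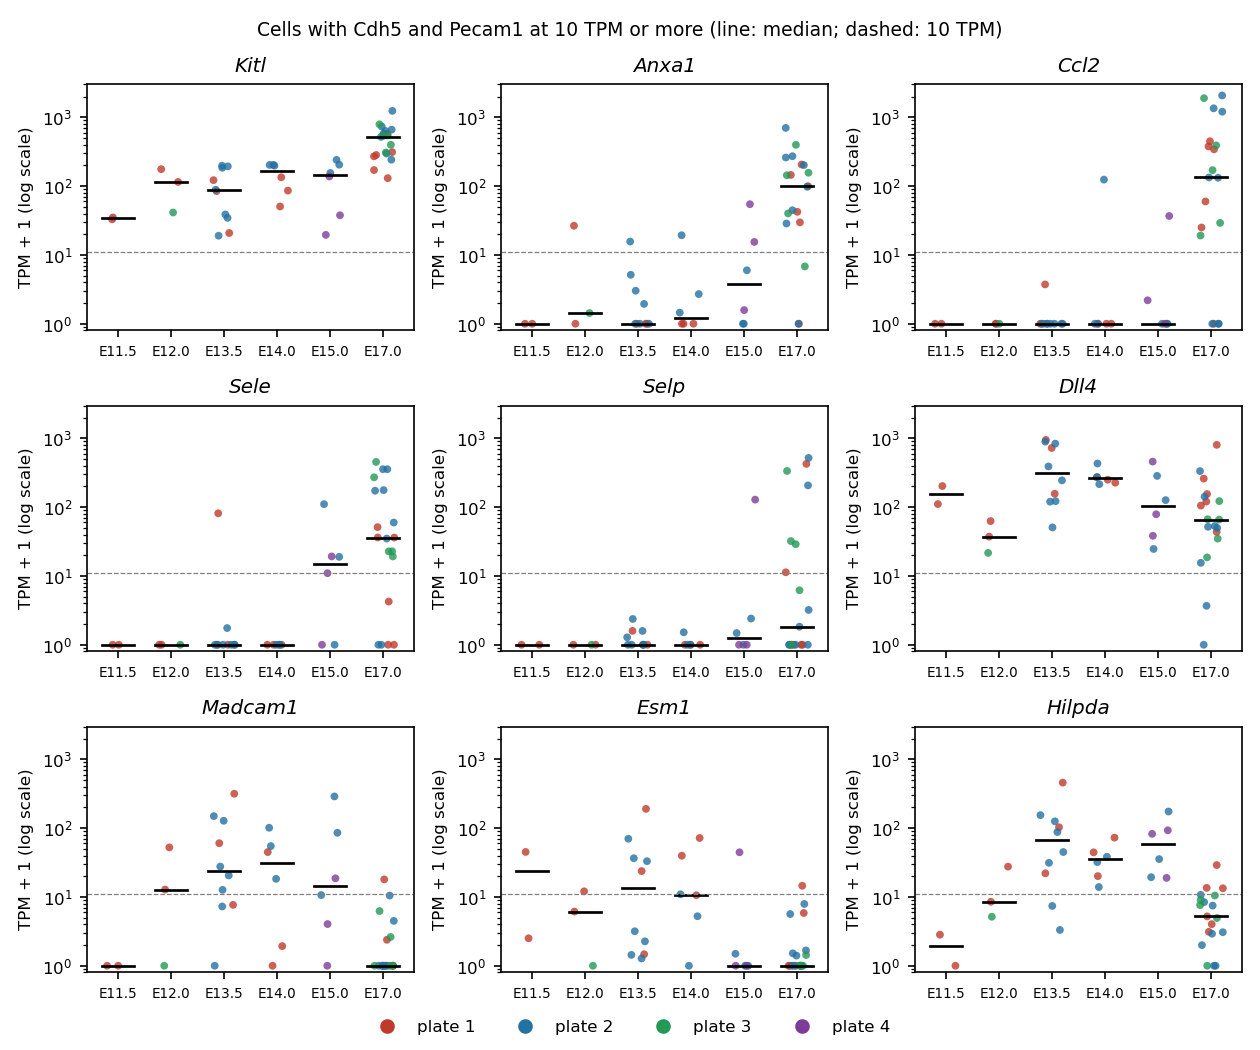
Level of 9 genes in each cell with both Cdh5 and Pecam1, as TPM + 1 on a log scale, by stage and coloured by plate. Kitl, Anxa1, Ccl2, Sele and Selp reach their highest values at E17.0, and Madcam1, Esm1, Hilpda and Dll4 have their highest values before it.

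The promoters of Cxcl1 and Madcam1, genes that lay on opposite sides of this comparison, both hold GGGA, any base and TTTCC in a row on one strand, a word within the range of sequences that NF-κB binds. On both strands of the same windows it occurs in 5 of 16 promoters of the inflammatory list and in 0.411% of all promoters. The 5 are those of Csf1, Cxcl1, Cxcl2, Il6 and Nfkbia. Since that list was written after values were seen, its share is a description and no test, and control by NF-κB was not tested. The match is in capitals in each, in the Cxcl1 promoter on the plus strand at chr5:90890995-90891294 and in the Madcam1 promoter on the plus strand at chr10:79664309-79664608, where the reverse complement is seen.
Cxcl1 promoter: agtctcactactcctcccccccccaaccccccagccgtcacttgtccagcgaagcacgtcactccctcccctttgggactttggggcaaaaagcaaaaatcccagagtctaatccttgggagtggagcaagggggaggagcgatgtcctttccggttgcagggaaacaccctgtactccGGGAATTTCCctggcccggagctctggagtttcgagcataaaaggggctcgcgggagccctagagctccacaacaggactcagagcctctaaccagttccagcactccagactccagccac
Madcam1 promoter: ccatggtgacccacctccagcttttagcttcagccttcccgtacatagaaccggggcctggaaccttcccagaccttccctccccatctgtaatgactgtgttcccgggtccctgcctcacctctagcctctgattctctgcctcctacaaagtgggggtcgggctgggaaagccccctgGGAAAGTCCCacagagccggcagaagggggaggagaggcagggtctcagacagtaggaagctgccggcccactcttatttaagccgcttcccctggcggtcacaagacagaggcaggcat
Sele, whose plate means overlapped, holds ACAGGAAG and not this word in its window.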

How the data were processed

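The authors deposited 1 table of TPM for 49662 gene symbols with a column for each of 1614 single cells. The labels list 1666 cells, of which 52 of low quality have no column and were not analysed here, and 0 columns were left unused. The submitters' processing notes name bcl2fastq 1.0, HISAT2 2.0.4, featureCounts of Subread 1.5.0 and mm10, and the annotation release and the strand of counting are not given in the sources used here. Stage and plate came from the labels. Cells were sorted 1 per well and no doublet caller was run.

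Members were found by the stated rule in the deposited TPM. Profiles are differences of log2(mean TPM + 1) between chosen cells and other Trp63-low cells of the same plates. This scale understates the change of low genes. The other cells were weighted to the chosen cells' plates, and chosen cells of plates without other cells stayed in. Trends used limma 3.58.1 in R 4.3.3 on genes averaging 1 TPM or more, after being tested on simulated data. All else ran in Python 3.11.15 with pandas 2.3.3 and scipy 1.17.1. The members and the 30 gene lists were chosen with earlier results of these data known, and the inflammatory, stress and hypoxia lists, the separate treatment of the 46 cells and the comparison of E17.0 with E13.5 were added after values were seen. Genes named are the rule genes, list members, and the 25 higher and 10 lower genes with the largest differences whose higher mean was at least 20 TPM and that reached 10 TPM in at least 50% of the higher group's cells. In the stage comparison the 20 largest each way were named. Predicted, ribosomal, mitochondrial and small RNA symbols were passed over, and the Mir126 symbols were named outside this rule after their values were seen. Alternatives changed the threshold, the pseudocount, the floor, the weighting and the scaling, and left out each stage or plate.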

Additional observations from a re-analysis of the deposited data

Results flagged for a closer look

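In the cells with Trp63 at 10 TPM or more, which the comparisons of endothelial-like cells do not use, Pecam1 was at 10 TPM or more in 57.99% of 269 cells at E12.0, without Cdh5 in any of them. For 11 of the 40 genes named in the comparison of E17.0 with E13.5, every plate of E17.0 showed a difference between the endothelial-like and the other Trp63-low cells in one direction and every plate of E13.5 in the opposite one. The same held for 772 of the 5704 genes of that comparison (13.53%), and the 40 were chosen for their change between these stages in the same cells. The change of that difference between the stages was not tested. On the log2 scale, E17.0 less E13.5, it was 7.89 for Ccl2, 6.24 for Cxcl1, 7.09 for Anxa1, 4.85 for Tnfaip3, 4.47 for Ptpre and 5.10 for Hmox1. It was -3.36 for Gas2l3, -2.72 for Gpr146, -5.22 for Smad7, -4.32 for Mmp28 and -3.99 for Bhlhe40.

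The other cells that were compared differ in type between the stages. At E17.0 0 of 66 other cells held 3 or more macrophage markers and 51 held fibroblast markers, while at E13.5 4 of 11 held macrophage markers and 2 held fibroblast markers. Hmox1, a haem-degrading enzyme that macrophages express, averaged 112 TPM in endothelial-like and 11.53 TPM in other cells on plate 2 of E17.0, and 23.5 TPM in endothelial-like and 235 TPM in other cells on plate 1 of E13.5. The part of the other cells' types in these 11 values was not tested.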

How the results depend on the processing

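The share of chosen cells, 4.77%, was 11.52% with a threshold of 5 TPM, 3.10% with 20 TPM, 2.85% where both genes were required, 16.2% with no limit on Trp63 and 6.63% with TPM rescaled after removing mitochondrial, ribosomal and like symbols. The share with both genes lay between 2.66% and 2.91% under the same changes of threshold, limit and scale. In the profile of the 77 cells the 113 higher genes became 50 with a pseudocount of 5 TPM and 408 with both genes required, and 92 to 287 when a stage was left out. The 19 lower genes became 56 with a pseudocount of 0.1 TPM, 2 with 5 TPM, 66 after rescaling, which also changed the chosen cells and left 5 of 6 stages, 856 with both genes required and 10 to 123 when a stage was left out. In the profile of the 46 cells the 408 higher genes became 258 with a pseudocount of 5 TPM. The 856 lower genes became 378 with that pseudocount, 452 with the mean of log2 values over cells, 1285 with a floor of 1 TPM and 492 with a floor of 20 TPM. Between E17.0 and E13.5 the higher genes, 1.28% of those tested, became 0.824% with a pseudocount of 5 TPM and 1.29% to 2.57% when a plate was left out. The lower genes, 1.74%, became 1.09% with that pseudocount and 1.94% to 4.37% when a plate was left out. The cause of these changes was not tested. Of 139 genes that met the profile rule of the 46 cells and are named or listed, 89 met it under every alternative run, and 31 of 53 did so between E17.0 and E13.5, none with a changed sign. The linear trends called 0 genes under every alternative run. Rescaling moved the level of all genes by a median of 0.46 to 0.55 on the log2 scale, and the difference between the 46 and the other cells by 0.06. No paired analysis was possible because the labels give no replicate numbers, each stage is 1 sample and E17.0 shares no plate identifier with E13.5. TPM keep no depth, so the limit of detection of a gene in a cell is unknown, and a value of 0 does not show absence.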
